A study of Mus musculus with 4 samples.

Results

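Secretory luminal cells line the gland ducts of the prostate and make the proteins of the prostatic fluid. They were chosen here by a rule on measured levels: Pbsn, Msmb, Defb50, Sbp and Tgm4 together at 100 or more UMIs per 10000 in a cell with no UMI of the leukocyte gene Ptprc. A UMI, or unique molecular identifier, counts 1 captured RNA molecule. Cells under 500 UMIs or 200 detected genes, or with over 20% of UMIs from mitochondrial genes, were left out first. The rule found 382 of the 31165 cells that passed these limits. Since the 5 genes chose the cells, their levels describe the cells and are not a finding.

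The series holds 4 mouse prostate libraries, 1 a group, made with the droplet 3′ kit of 10x Genomics after digestion with collagenase and TrypLE. The Trp53-deleted ADT mice were 5.5 months old, the Trp53-deleted mice 3.5 months, the Trp53-intact ADT mice 5.5 months and the Trp53-intact mice 4 months. The Trp53 deletion is marked PC in the labels, which is read here as prostate-restricted. The labels name neither the promoter behind the deletion nor the number of mice per library. ADT, which the labels do not spell out, is read as androgen deprivation therapy. The effects of genotype and of library cannot be told apart, and the same holds for ADT, age and library. With 1 library a group no difference has a replicate check, so no test was made, and "higher" and "lower" go by size alone. Intervals are exact at the 95% level and cover counting error only.

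The secretory programme of the prostate depends on androgen. Probasin, encoded by Pbsn, is a secreted lipocalin of the dorsolateral lobes whose promoter is widely used to drive transgenes in prostate epithelium. Msmb encodes beta-microseminoprotein, a major protein of prostatic fluid, and Defb50 a beta-defensin of the prostate, one of the small antimicrobial peptides of epithelia. Sbp encodes spermine-binding protein, an androgen-dependent secretion of the ventral lobe, and Tgm4 the prostate transglutaminase that cross-links seminal proteins into the copulatory plug. The lobes of the mouse prostate differ in which of these proteins they make.

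Pbsn, Sbp and Tgm4 have an entry in the RefSeq promoter table (GRCm38.p6), and the 250 bases before the start are shown because these 3 genes are among those that chose the cells. The Pbsn window is chrX:77853501-77853750 on the minus strand, the Sbp window chr17:23941428-23941677 and the Tgm4 window chr9:123034491-123034740, both on the plus strand. Sbp has 3 starts in that table and the one nearest the GENCODE start is shown. The GENCODE starts of Pbsn (77853623), Sbp (23941672) and Tgm4 (123034726) lie inside their windows, 5′ of the RefSeq starts. Both motifs marked in the Pbsn window lie 3′ of its GENCODE start. Capitals mark AGAACA, the half-site bound by steroid hormone receptors, and TATAAA, known as the TATA box.
Pbsn: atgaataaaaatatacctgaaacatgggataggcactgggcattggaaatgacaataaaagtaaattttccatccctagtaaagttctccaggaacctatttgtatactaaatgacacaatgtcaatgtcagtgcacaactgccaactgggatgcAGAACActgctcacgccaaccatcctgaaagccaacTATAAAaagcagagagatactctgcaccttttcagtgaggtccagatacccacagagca
Sbp: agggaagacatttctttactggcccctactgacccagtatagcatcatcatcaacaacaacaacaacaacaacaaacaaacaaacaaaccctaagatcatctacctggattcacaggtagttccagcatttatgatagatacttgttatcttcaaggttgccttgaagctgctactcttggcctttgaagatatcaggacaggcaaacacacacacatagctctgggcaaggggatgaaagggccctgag
Tgm4: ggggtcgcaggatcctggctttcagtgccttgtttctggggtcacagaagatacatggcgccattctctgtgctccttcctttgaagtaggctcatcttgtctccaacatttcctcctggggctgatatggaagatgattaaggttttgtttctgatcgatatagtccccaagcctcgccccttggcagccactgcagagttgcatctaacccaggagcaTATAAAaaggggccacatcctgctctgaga
Both motifs were searched on both strands, and their letters do not overlap in these windows. In the Pbsn window AGAACA ran from 95 to 90 bases and TATAAA from 59 to 54 bases before the start. In the Tgm4 window TATAAA ran from 30 to 25 bases before the start, and no AGAACA was present. The Sbp window held neither. Of 32536 windows of this length, 16% held AGAACA and 12.3% held TATAAA, so such matches are common. Msmb and Defb50 are named only.

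Cells that met the rule were found in both libraries without ADT and in neither library with ADT. They numbered 0 of 9626 cells in the Trp53-deleted ADT library, which allows a share of up to 0.0312%, and 12 of 5694 cells in the Trp53-deleted library, a share of 0.211% (Clopper-Pearson interval 0.109 to 0.368%). They numbered 0 of 7751 cells in the Trp53-intact ADT library, which allows up to 0.0387%, and 370 of 8094 cells in the Trp53-intact library, a share of 4.57% (4.13 to 5.05%). The highest summed marker level of any cell without Ptprc was 22.2 UMIs per 10000 in the Trp53-deleted ADT library, 2492 in the Trp53-deleted library, 11.7 in the Trp53-intact ADT library and 3488 in the Trp53-intact library. No cell of either ADT library came near the limit of 100.

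**Figure D1:**
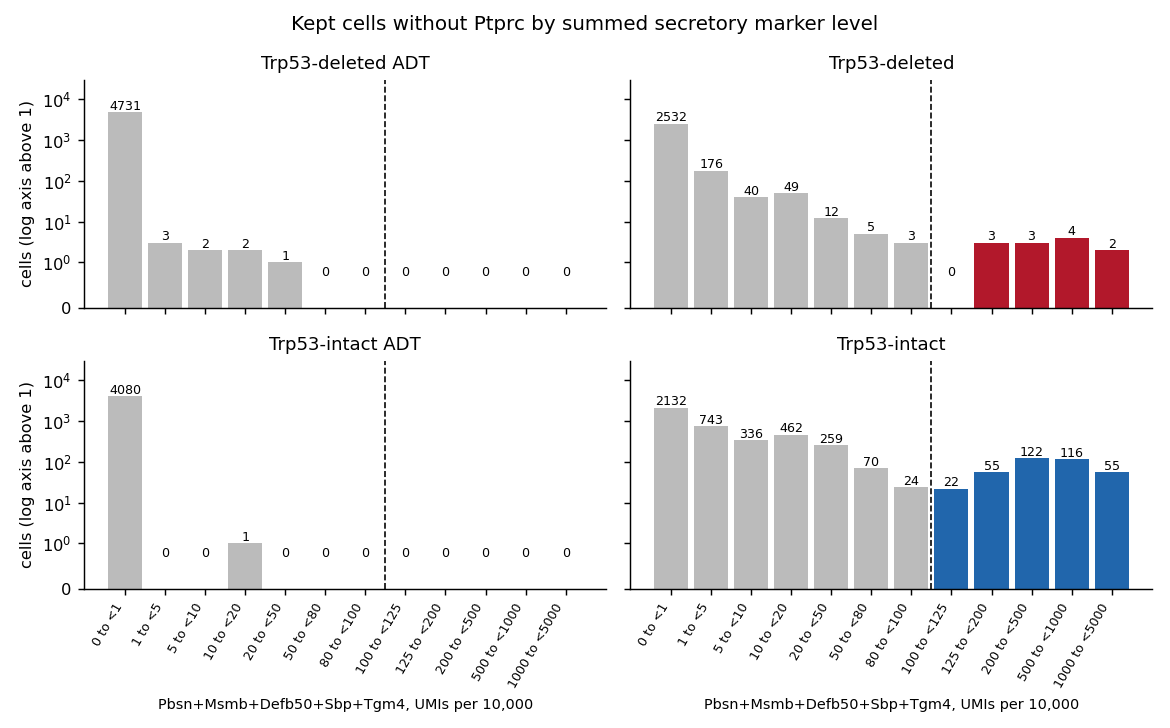
Number of cells without Ptprc (vertical axis, logarithmic above 1) by the summed level of Pbsn, Msmb, Defb50, Sbp and Tgm4 in UMIs per 10000 (horizontal axis), 1 panel a library. The dashed line stands at the limit of 100, coloured bars to its right are the secretory luminal cells, and only the Trp53-deleted library (12 cells) and the Trp53-intact library (370 cells) have any.

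Depth was highest in one ADT library, and the other had the lowest median per cell of the 4. The Trp53-deleted ADT library was the deepest, with 148030357 UMIs, against 58088678 in Trp53-deleted, 63803901 in Trp53-intact ADT and 90659173 in Trp53-intact. The median UMIs per cell were 5562, 4460, 4081 and 5262 in the same order. Pbsn, Msmb, Defb50, Sbp and Tgm4 together gave 37 UMIs over all cells of Trp53-deleted ADT, 45748 in Trp53-deleted, 10 in Trp53-intact ADT and 188555 in Trp53-intact. In library-wide counts, fewer cells of a type and less RNA per cell cannot be told apart.

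Epithelial cells themselves were present in all 4 libraries. With Krt8, Krt18, Krt19 and Epcam together at 20 or more UMIs per 10000 and no Ptprc UMI, 612 cells were epithelial-gated in Trp53-deleted ADT, 477 in Trp53-deleted, 1141 in Trp53-intact ADT and 1505 in Trp53-intact. The secretory luminal cells were 0 of the 612 cells in Trp53-deleted ADT (up to 0.490%) and 11 of the 477 cells in Trp53-deleted, or 2.31% (1.16 to 4.09%). They were 0 of the 1141 cells in Trp53-intact ADT (up to 0.263%) and 308 of the 1505 cells in Trp53-intact, or 20.5% (18.5 to 22.6%). The 5 markers gave 4 UMIs over these cells in Trp53-deleted ADT, 42000 in Trp53-deleted, 4 in Trp53-intact ADT and 142918 in Trp53-intact.

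Genes outside the rule were compared over the same epithelial-gated cells, which include most secretory luminal cells. Hoxb13, a homeobox factor of the prostate, was present in the epithelial-gated cells of all 4, at 32.6 CPM (UMIs per 1000000) in Trp53-deleted ADT, 146 CPM in Trp53-deleted, 25.7 CPM in Trp53-intact ADT and 91.8 CPM in Trp53-intact. Defb1, an epithelial beta-defensin, stood at 79.1 CPM in Trp53-deleted ADT, 85.9 in Trp53-deleted, 26.7 in Trp53-intact ADT and 449.6 in Trp53-intact. Rnase1, a secreted ribonuclease, stood at 14.4 CPM in Trp53-deleted ADT, 43.3 in Trp53-deleted, 2.02 in Trp53-intact ADT and 328 in Trp53-intact. Thus Hoxb13 and Rnase1 were lower with ADT in both genotypes, whereas Defb1 differed little between the Trp53-deleted libraries. In Trp53-intact, the 370 secretory luminal cells, 308 of them in the gate, held 9416 Defb1 and 6040 Rnase1 UMIs. All epithelial-gated cells there held 10707 and 7804, so these 2 levels largely repeat the presence of cells that the rule chose.

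The cells carried luminal epithelial genes besides those of the rule. The epithelial gate passed 11 of the 12 Trp53-deleted cells and 308 of the 370 Trp53-intact cells. Over the summed UMIs of the cells (274461 in Trp53-deleted, 2939713 in Trp53-intact), the luminal keratin Krt8 stood at 987 CPM in Trp53-deleted and 932 CPM in Trp53-intact, and Krt18 at 740 and 1057 CPM in the same order. Epcam, an epithelial adhesion protein, stood at 769 CPM in Trp53-deleted and 799 CPM in Trp53-intact. Hoxb13 was 313 CPM in Trp53-deleted and 203 CPM in Trp53-intact. Cd24a and Cdh1 were detected in both groups too. The 8 luminal genes fixed as a check summed to 4962 CPM in the secretory luminal cells of Trp53-intact, against 8503 CPM in its progenitor-gated and 5875 CPM in its basal-gated cells and 658 CPM in its immune cells, so they mark epithelium at large and not this class of it.

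RNA of other cell types was present too, and its share differed with depth. The Trp53-intact cells ran from 505 to 120271 UMIs (median 1681), and 82 cells with 5000 or more UMIs held 83.4% of the UMIs. The Trp53-deleted cells ran from 579 to 108532 UMIs (median 1973), and 4 of them, with 108532, 52988, 52751 and 48655 UMIs, held 95.8%. In Trp53-intact, 3 plasma cell genes summed to 124 CPM in the cells with 5000 or more UMIs and to 1948 CPM in the 93 cells under 1000 UMIs, while 5 fibroblast genes summed to 507 and 1846 CPM and 6 seminal vesicle genes to 10.6 and 1163 CPM. Basal and progenitor markers did not follow that order, with 523 and 349 CPM for 5 basal genes and 423 and 378 CPM for 5 progenitor genes. In Trp53-deleted, 6 seminal vesicle genes summed to 152 CPM in the 4 deep cells and 2322 CPM in the 6 cells from 1000 to under 5000 UMIs, whereas endothelial, B cell, smooth muscle and neuroendocrine markers had 0 UMIs in all 12 cells. The part of these genes in the results below was not tested, and the results that follow lean on the deep cells.

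Marker UMIs were also found in other cells of the Trp53-intact library, and whether free RNA or doublets gave them was not tested. Defb50 and Pbsn stood at 38122 and 2742 CPM in the secretory luminal cells, against 266 and 39.8 CPM in the 2939 immune cells. With every cell thinned to 1000 UMIs, which left 277 secretory luminal and 2923 immune cells, Defb50 was found in 97.8% and 11.9% of cells, Pbsn in 53.8% and 1.64%, Msmb in 52.7% and 1.16%, Tgm4 in 34.3% and 0.684%, and Sbp in 14.1% and 2.29%. Unthinned, Sbp was found in 21.9% of the secretory luminal cells. A few UMIs of Defb50 or Sbp in a cell are therefore at the level of the immune cells.

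Defb50 was the leading marker in most cells. In Trp53-intact it had the highest level of the 5 genes in 345 of 370 cells and gave 80.8% of their marker UMIs. Sbp led in 13 cells, Tgm4 in 6, Pbsn in 3 and Msmb in 3. In Trp53-deleted, Defb50 led in 8 of 12 cells and Sbp in the other 4, and Sbp gave 88.8% of the marker UMIs. The summed marker level ran from 171 through a median of 499.8 to 2492 UMIs per 10000 in Trp53-deleted and from 101 through 456 to 3488 in Trp53-intact.

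Many cells led by Defb50 also held UMIs of other genes of the rule, and those of Sbp were the least frequent. Of the 345 Trp53-intact cells led by Defb50, 212 also had a Pbsn UMI, 218 an Msmb UMI and 127 a Tgm4 UMI. An Sbp UMI was present in 67 of them, and the 345 cells held 390 Sbp UMIs in all. Their Sbp level had a median of 0 and a highest value of 530 UMIs per 10000, so high Sbp occurred beside Defb50 in at least 1 cell. In the 82 deep Trp53-intact cells, Defb50 had a median of 333 and a highest value of 2056 UMIs per 10000, Pbsn 12.9 and 197, Msmb 3.36 and 435, and Tgm4 0.326 and 187. Their Sbp level had a median of 0 and a highest value of 1990. Across these 82 cells of 1 library, each thinned to 1000 UMIs, Spearman's rho was 0.66 between Pbsn and Tgm4 and 0.57 between Msmb and Defb50, and 0.09 between Msmb and Tgm4. It was 0.47 between Pbsn and Defb50 and 0.39 between Pbsn and Msmb. These values describe cells that share a library, counts that share a total and genes whose sum chose the cells, and nothing is read from them.

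The few cells led by another gene varied. The 3 cells led by Pbsn had 67, 44 and 19 Pbsn UMIs beside 57, 14 and 2 Defb50 UMIs and 9, 3 and 6 Tgm4 UMIs. The 6 cells led by Tgm4, from the deepest on, had 133, 57, 46, 30, 13 and 32 Tgm4 UMIs beside 124, 1, 4, 27, 0 and 26 Defb50 UMIs and 37, 2, 18, 1, 5 and 0 Pbsn UMIs, so Defb50 was near the level of other cell types in some of them. The 3 cells led by Msmb had 42, 20 and 17 Msmb UMIs beside 34, 6 and 11 Defb50 UMIs.

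**Figure D2:**
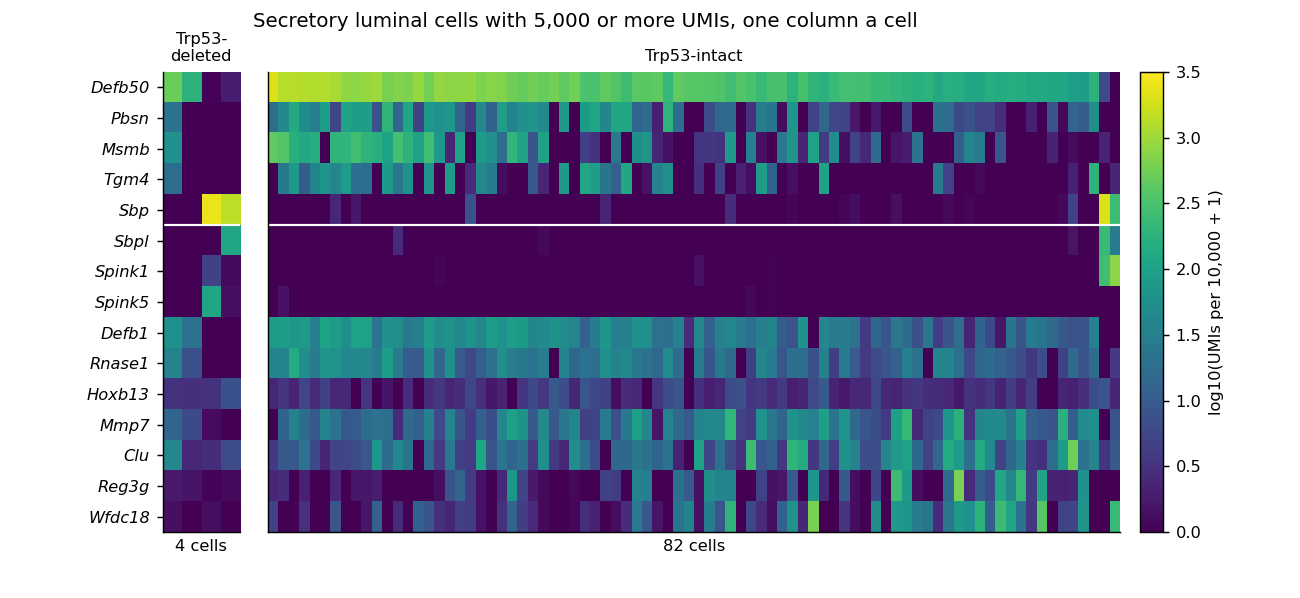
Level of 15 genes (rows) in each secretory luminal cell with 5000 or more UMIs (columns), 4 Trp53-deleted cells on the left and 82 Trp53-intact cells on the right, coloured by log10 of UMIs per 10000 plus 1. The white line divides the 5 genes of the rule from genes outside it, cells are ordered by leading marker and then by summed marker level, and the cells high in Sbp, at the right end of each panel, are low in Defb1 and Rnase1.

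Cells led by Sbp numbered 4 in Trp53-deleted and 13 in Trp53-intact, and most of them had few or no UMIs of the other markers. The Trp53-deleted ones had 27046, 6921, 151 and 155 Sbp UMIs among 108532, 48655, 2937 and 1697 UMIs in all. The deepest Trp53-intact one had 1606 Sbp UMIs among 8069. None of the 4 Trp53-deleted cells had a Pbsn, Msmb, Tgm4, Defb1 or Rnase1 UMI. Of the 13 Trp53-intact cells, 1 had a Pbsn UMI, 1 an Msmb UMI, 2 a Tgm4 UMI, 0 a Defb1 UMI and 1 an Rnase1 UMI, and their highest Defb50 count was 4 UMIs. The 2 deep Trp53-deleted cells had 98 and 47 Krt8 UMIs and 56 and 47 Epcam UMIs, and a Krt8, Krt18, Krt19 or Epcam UMI was present in 4 of 4 Trp53-deleted and 11 of 13 Trp53-intact cells, in some of them only 1.

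The genes that accompanied Sbp differed from cell to cell in both libraries. Sbpl, the gene for a protein like spermine-binding protein, had 0, 543, 0 and 0 UMIs in the 4 Trp53-deleted cells, and a UMI in 12 of the 13 Trp53-intact cells. Per 100 Sbp UMIs, the 1 Trp53-deleted cell with Sbpl had 7.85 Sbpl UMIs, and the 13 Trp53-intact cells together had 10.6. Spink1, a secreted trypsin inhibitor, had 40, 1, 4 and 6 UMIs in the 4 Trp53-deleted cells and a UMI in 6 of the 13 Trp53-intact cells, with 217 and 558 UMIs in the 2 deep ones and 0 in the next deepest. Spink5, a serine protease inhibitor of epithelia, had 1266, 2, 6 and 3 UMIs in the Trp53-deleted cells and 9 UMIs over all 13 Trp53-intact cells. Per 10000 UMIs, Spink5 was 117, 0.411, 20.4 and 17.7 in the Trp53-deleted cells and at most 41.3 in a Trp53-intact one. The 2 shallow Trp53-deleted cells rest on 6 and 3 Spink5 UMIs, and the deepest cell gave nearly all of the UMIs. Sbp (chromosome 17, 23941672 to 23945607, plus strand) and Sbpl (23953084 to 23955274, minus strand; GRCm38) are neighbours and alike in name, and the labels do not say how reads matching both were counted.

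Within the Trp53-intact cells, 5 genes outside the rule were named as highest in the Defb50-led cells over the other 25. Reg3g, an antimicrobial C-type lectin, was 4771 CPM in the 345 cells and 174 CPM in the 25, and its relative Reg3b was 485 and 15.8 CPM. The acute-phase gene Lrg1 was 343 and 47.4 CPM, the stress factor Atf3 318 and 47.4 CPM and the kinase gene Sgk1 389 and 63.2 CPM. A single cell gave 54.2% of the Reg3g UMIs and 70.5% of the Reg3b UMIs of the 370 cells, and the 25 cells held only 63301 UMIs in all. Across the 82 deep cells, each thinned as for the marker genes, Spearman's rho was 0.67 between Reg3g and Wfdc18, a small secreted whey acidic protein. With the summed marker level it was -0.39 for Reg3g and -0.45 for Wfdc18. After thinning, Reg3g had a UMI in only 39 of the 82 cells, with a median of 0. The cells share a library, the counts share a total and the summed level chose the cells, so nothing is read from these rho values.

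Cells without Ptprc in the Trp53-intact library covered a range of marker levels with no gap at the limit of 100. The part of free RNA and doublets in the middle of that range was not tested. There were 24 cells without Ptprc from 80 to under 100 UMIs per 10000 and 22 cells from 100 to under 125. Just inside and just outside the limit, Krt8 was 1056 and 1517 CPM, Hoxb13 169 and 202 CPM, Defb1 762 and 719 CPM and Rnase1 844 and 1443 CPM. Clu was 16254 and 6841 CPM. The inside values lean on cells of 53702, 38446 and 38288 UMIs, beside a median of 1412. The limit therefore cuts a range, and the count of 370 moves with it.

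Along that range, genes outside the rule differed step by step, from under 1 marker UMI per 10000 (553 epithelial-gated cells) to 500 and more (152 cells). Defb1 stood at 19.0, 155, 303, 517, 1064, 2773 and 5582 CPM over the 7 bins from low to high. Rnase1 went through 19.2, 118, 276, 997, 1349, 1984 and 2926 CPM. Prdx6, an antioxidant peroxiredoxin, went through 632, 898, 1165, 2016, 2643, 3264 and 3422 CPM. Both secreted products and Prdx6 were thus higher in every bin than in the one before. Hoxb13 did likewise, at 67.7, 84.9, 104, 159, 185, 212 and 215 CPM. Ncoa4, a nuclear receptor coactivator and ferritin receptor, was 72.0 CPM in the lowest bin and 586 CPM in the highest. The endoplasmic reticulum genes Sdf2l1 and Creld2, which respond to unfolded protein, were 50.1 and 41.8 CPM in the lowest bin and 374 and 209 CPM in the highest.

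Some genes ran the other way. The progenitor gene Psca was 351 CPM in the lowest bin and 58.7 CPM in the highest. Krt15, a basal keratin, was 1441 and 227 CPM, and Foxa1, a pioneer factor of luminal cells, was nearly level at 216 and 192 CPM. The secreted chaperone Clu and the protease gene Mmp7 peaked in the middle, Clu at 9418 CPM and Mmp7 at 7569 CPM in the 68 cells from 50 to under 100 UMIs per 10000. Reg3g, at 12291 CPM from 100 to under 200, rests there on the 1 cell described above. The cells of the lowest bin were deeper (median 12153 UMIs) than those of the highest (1962), and the part of depth in all these values was not tested. Krt8, Krt18, Krt19 and Epcam were part of the gate, so no trend is read from them.

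**Figure D3:**
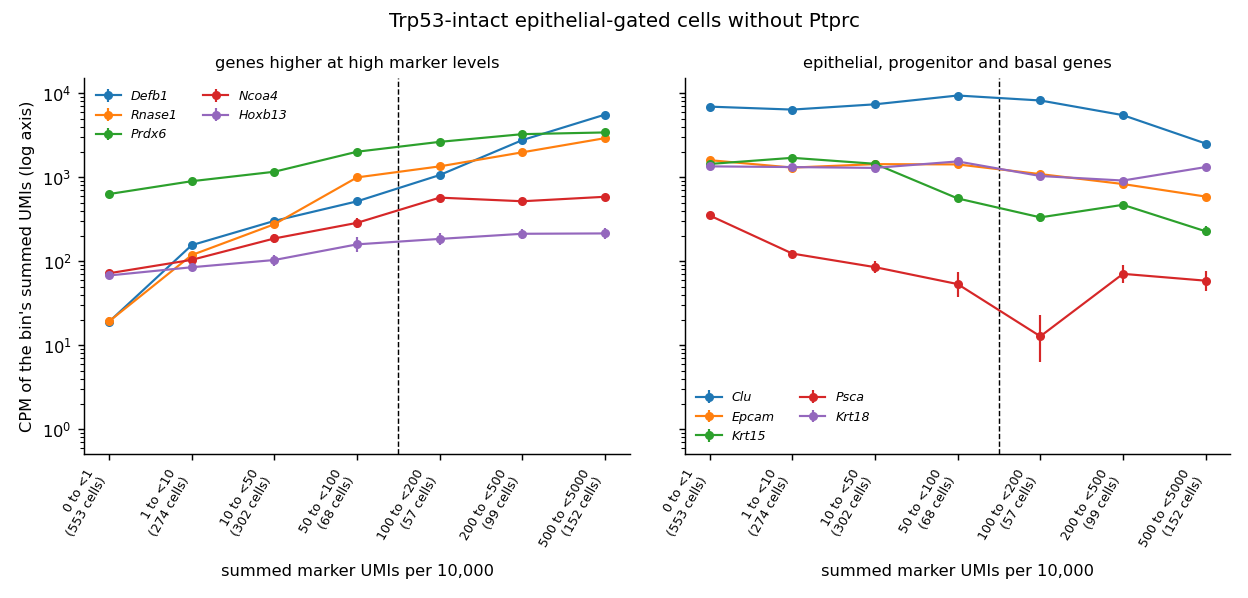
Level in CPM (logarithmic axis, bars are exact 95% Poisson intervals) of 5 genes that were higher at high marker levels (left) and 5 epithelial, progenitor and basal genes (right) in epithelial-gated Trp53-intact cells without Ptprc, by summed marker level in UMIs per 10000 with the number of cells in each bin. Right of the dashed line are secretory luminal cells, and Defb1 stands at 5582 CPM in the highest bin and 19.0 CPM in the lowest.

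Luminal progenitor cells, the other luminal kind, were gated in the same library by a marker list that includes Krt4, Psca, Ppp1r1b and Krt7 (172 cells), and basal cells by Krt5, Krt14, Krt15 and Krt17 (331 cells). Against the progenitor-gated cells, 277 of 10659 genes (2.6%) were at least 2-fold higher in the secretory luminal cells and 578 (5.42%) at least 2-fold lower, on a log2 scale with 10 CPM added to each level. Against the basal-gated cells, 285 of 10864 genes (2.62%) were higher and 510 (4.69%) lower. All 3 classes come from 1 library, and the gates fix the direction of their own genes.

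Secreted and surface proteins led the genes outside the rule. Defb1 was 3203 CPM (3139 to 3268) in secretory luminal and 12.6 CPM (9.29 to 16.6) in progenitor-gated cells, a log2 difference of 7.15. Rnase1 was 2055 CPM (2003 to 2107) and 18.7 CPM (14.7 to 23.5), a log2 difference of 6.17. Mme, the membrane protease neprilysin, was 345 and 17.7 CPM (log2 3.68). Tcaf2 and Tcaf3, which encode factors associated with TRP channels, were 273 and 128 CPM in secretory luminal and 10.5 and 0.769 CPM in progenitor-gated cells. Pnliprp1, which encodes a lipase-related protein, had 258 UMIs against 0.

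Other named genes on the higher side were the protease inhibitor Serpine2 (179 and 15.9 CPM in secretory luminal and progenitor-gated cells), the proton pump gene Atp6v1c2 (86.7 and 1.02 CPM), the scaffold gene Pdzk1 (80.6 and 4.10 CPM) and Fam25c (241 and 17.7 CPM). Spink1 (351 and 2.05 CPM) and Sbpl (137 and 1.28 CPM) belong to the Sbp-led cells, which held 96.2% and 89.6% of their UMIs. Upk3a (136 and 8.71 CPM) rests on 1 cell that gave 97.5% of its UMIs, and it was 3.52 CPM without that cell.

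The named genes on the lower side began with a trefoil peptide. Tff3, a trefoil peptide that protects mucous surfaces, was 13.3 CPM in secretory luminal and 942 CPM in progenitor-gated cells, a log2 difference of -5.35. Ltf, the iron-binding lactoferrin, was 28.9 and 750 CPM, and Fcgbp, a mucin-like protein, 15.7 and 488 CPM. Gsdmc2, Gsdmc3 and Gsdmc4, which encode gasdermins of the pore-forming family, were 12.6, 6.46 and 1.70 CPM in secretory luminal cells and 692, 463 and 211 CPM in progenitor-gated cells; reads of these close relatives can be split by the counting. The urokinase receptor gene Plaur was 10.9 and 355 CPM, the tissue factor gene F3 12.6 and 380 CPM, the neutrophil chemokine gene Cxcl5 5.44 and 238 CPM and the carbonyl reductase gene Cbr2 258 and 3758 CPM.

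**Figure D4:**
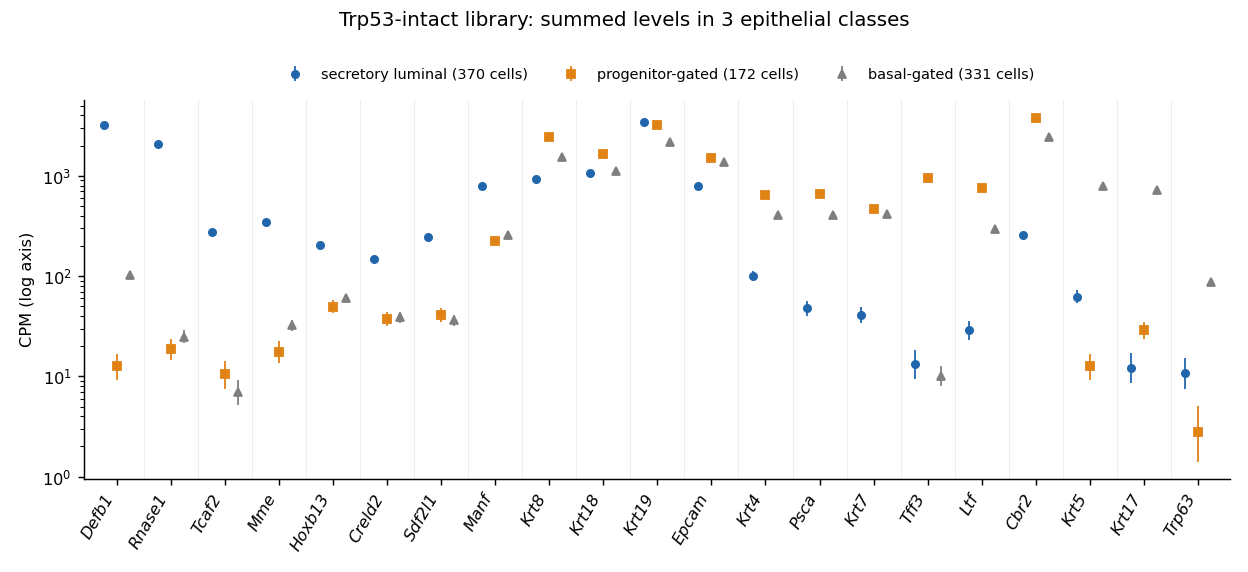
Level in CPM (logarithmic axis, bars are exact 95% Poisson intervals) of 21 genes in the summed UMIs of secretory luminal (370 cells, circles), progenitor-gated (172 cells, squares) and basal-gated (331 cells, triangles) cells of the Trp53-intact library. Defb1 and Rnase1 are highest in secretory luminal cells, at 3203 and 2055 CPM, and Tff3 is highest in progenitor-gated cells, at 942 CPM.

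Gene groups added detail. Of 45 measured genes of secretory machinery and the unfolded protein response, 10 were higher and 0 lower in secretory luminal than in progenitor-gated cells, with a median log2 of 0.60 beside -0.01 over all genes. Among them the chaperones Calr (1490 and 673 CPM) and Hsp90b1 (1150 and 567 CPM), the disulphide isomerase Pdia6 (834 and 264 CPM) and the stress-induced factor Manf (793 and 223 CPM) were higher. Against the basal-gated cells 10 of 43 were higher and 0 lower, where 2.62% and 4.69% of all genes were. Of 90 measured genes of an androgen response list, 11 were higher and 13 lower with a median of 0.02, where 2.6% and 5.42% of all genes were. Ncoa4 (537 and 79.2 CPM) and the lipid-binding protein gene Azgp1 (84.7 and 8.20 CPM) were among the higher ones, and the stress gene Ndrg1 and Krt8 (932 and 2455 CPM) among the lower.

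Inflammatory and adhesive genes were on the lower side in secretory luminal beside progenitor-gated cells, where 2.6% of all genes were higher and 5.42% lower. Of 16 measured chemokine and cytokine genes, 0 were higher and 11 lower, with a median log2 of -1.61; Cxcl2 was 73.5 CPM in secretory luminal and 936 CPM in progenitor-gated cells. Of 16 luminal junction genes, 2 were higher and 8 lower, among them the tight junction gene Cldn4 (162 and 830 CPM) and the cadherin gene Cdh1 (266 and 840 CPM). Of 19 glycolysis and hypoxia genes, 0 were higher and 7 lower, including the oxygen sensor gene Egln3 (5.10 and 100.4 CPM). Among 18 luminal factors, 2 were higher, Hoxb13 among them (203 and 49.7 CPM), and Elf3 (132 and 671 CPM), Klf5, Meis2 and Hoxd13 were lower. B2m, the light chain of class I histocompatibility molecules, was the 1 higher gene of 27 in the interferon and class I list (9824 and 3404 CPM), and 4 were lower. No measured gene of 21 in oxidative phosphorylation passed 2-fold.

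Zinc and polyamine genes, which serve the content of prostatic fluid, differed in single members. Over all genes, 2.6% were higher and 5.42% lower in secretory luminal than in progenitor-gated cells. Of 20 measured genes of citrate and zinc handling, Slc30a2, a zinc exporter of secretory vesicles (28.9 and 0.512 CPM), and the metallothionein gene Mt2 (674 and 287 CPM) were higher in secretory luminal than in progenitor-gated cells. Of 11 polyamine genes, the arginase Arg2 (51.0 and 13.3 CPM) and the spermidine synthase Srm (36.4 and 11.3 CPM) were higher and Sat1 lower. Of 16 cell cycle genes, Cdk1 (19.4 and 0.256 CPM), Ube2c (36.7 and 0.256 CPM), Top2a (16.7 and 2.31 CPM) and Stmn1 (120.1 and 47.4 CPM) were higher and 0 lower; a single cell gave 59.3% of the Ube2c UMIs. Of 20 genes induced by dissociation, 0 were higher and 7 lower.

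In the Trp53-deleted library, the 12 secretory luminal cells were set beside 118 progenitor-gated cells: 173 of 4062 genes (4.26%) were at least 2-fold higher and 595 (14.6%) at least 2-fold lower. Defb1 was 1556 CPM in secretory luminal and 2.04 CPM in progenitor-gated cells, Hoxb13 313 and 107 CPM and Ltf 3.64 and 831 CPM. Tff3 had 0 UMIs in the 12 cells and stood at 294 CPM in the progenitor-gated cells. Defb1, Hoxb13, Ltf and Tff3 differed in the same direction as in Trp53-intact, but other genes did not. Reg3g was at least 2-fold higher than in progenitor-gated cells in Trp53-intact and at least 2-fold lower in Trp53-deleted, and Spink5 the reverse. All Defb1 UMIs of the 12 cells came from the 8 Defb50-led ones. Of 9 measured chemokine and cytokine genes, 0 were higher and 8 lower.

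The comparison of the secretory luminal cells of Trp53-deleted with those of Trp53-intact rests on 12 cells, of which 4 gave nearly all UMIs. The 4 were 2 Sbp-led and 2 Defb50-led cells, so the summed levels mix both kinds, and cell by cell values say more. On summed levels, 132 of 3713 genes (3.56%) were at least 2-fold higher and 225 (6.06%) at least 2-fold lower. When the 5 marker genes, which took 14.1% of the UMIs in Trp53-deleted and 4.72% in Trp53-intact, were left out of the CPM, 185 were higher and 185 lower. Of the markers, Sbp was higher (124874 and 1292 CPM in Trp53-deleted and Trp53-intact) and Defb50 (13882 and 38122 CPM), Msmb (1177 and 4001 CPM), Pbsn (426 and 2742 CPM) and Tgm4 (342 and 1029 CPM) were lower. The Sbp-led cells held 161821 of the 274461 UMIs in Trp53-deleted and 33007 of the 2939713 in Trp53-intact. In the Defb50-led cells alone, Defb50 was 33780 and 38850.5 CPM, Msmb 2868 and 4052, Pbsn 1039 and 2731 and Tgm4 835 and 936. These 5 genes chose the cells, so no difference between the groups is read from them.

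Trp53 had 7 UMIs (25.5 CPM, 10.3 to 52.5) in 4 of the 12 Trp53-deleted cells and 138 UMIs (46.9 CPM, 39.4 to 55.5) in 57 of the 370 Trp53-intact cells. The counts come from 3′ ends of transcripts, and the labels do not name the deleted exons, so they do not check the deletion. Cdkn1a, the cell cycle inhibitor p21 and a direct target of p53, had 0 UMIs in Trp53-deleted and 448 UMIs (152 CPM) in Trp53-intact. Against the 3 UMIs that a count of 0 allows over the Trp53-deleted cells (10.9 CPM), it was at least 13.9-fold lower. It was found in 0 of the 4 deep Trp53-deleted cells and 52 of the 82 deep Trp53-intact cells, where its highest level was 11.8 UMIs per 10000. The groups overlap at 0, since the other deep Trp53-intact cells had no Cdkn1a UMI either.

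Of 36 listed p53 targets, 10 were measured. Among these 10, Cdkn1a included, 5 were lower, 1 was higher and 4 passed neither limit, where 6.06% of all genes were lower and 3.56% higher. Their median log2 was -1.11 beside -0.02 over all genes. The summed levels mix Sbp-led and Defb50-led cells in unlike shares in the 2 libraries. The pro-apoptotic gene Bax was 0.276, 0.944, 0.948 and 0.617 UMIs per 10000 in the 4 deep Trp53-deleted cells and had a median of 2.07 and a highest value of 9.19 in the 82 Trp53-intact ones. The cyclin gene Ccng1 was 0.276, 0.755, 0.948 and 0.411 UMIs per 10000 in the Trp53-deleted cells and had a median of 1.47 in the Trp53-intact cells. The groups overlapped for both genes, and the Trp53-deleted cells, at 48655 UMIs or more, were deeper than most of the Trp53-intact ones, in which a single UMI stands for a higher level. Btg2 (222 and 592 CPM) and Trp53inp1 (14.6 and 72.1 CPM) were the other lower ones, and the peptide transporter gene Tap1 was higher. Cdkn2a, which encodes the inhibitor p16 and the p53 regulator p19Arf, was 364 CPM in Trp53-deleted and 115 CPM in Trp53-intact, but 1 Trp53-deleted cell gave 80 of its 100 UMIs. With a marker limit of 200, which leaves that cell out, Cdkn2a was lower in Trp53-deleted (log2 -0.33).

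**Figure D5:**
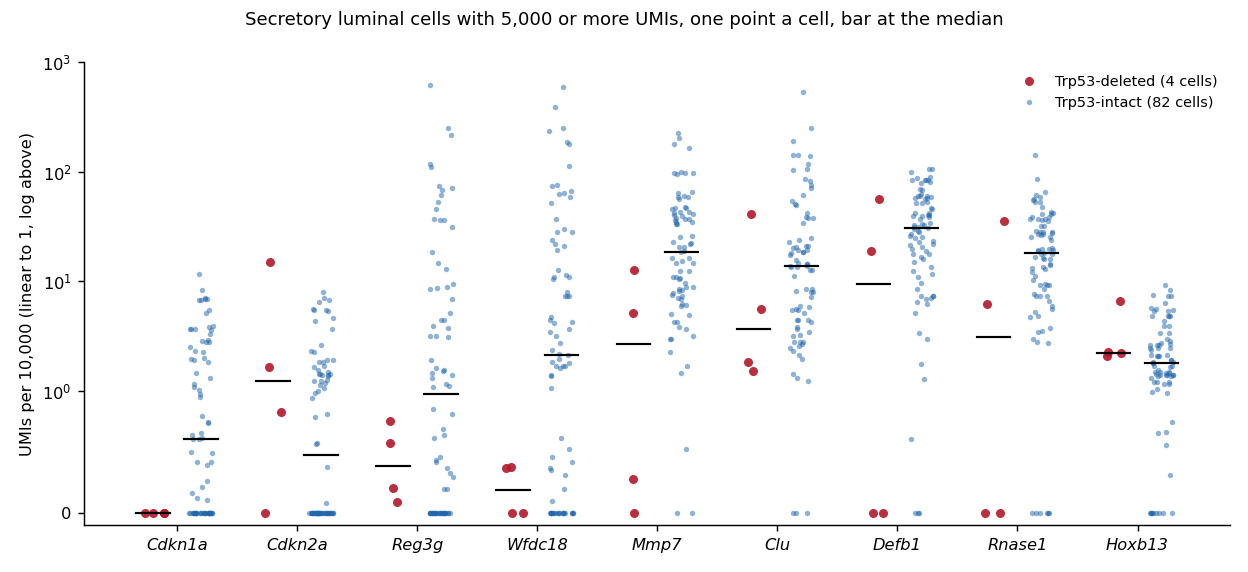
Level in UMIs per 10000 (linear up to 1 and logarithmic above) of 9 genes in each secretory luminal cell with 5000 or more UMIs, 4 Trp53-deleted cells (left of each pair) and 82 Trp53-intact cells (right), with a bar at the median. Cdkn1a is at 0 in all 4 Trp53-deleted cells and at up to 11.8 in Trp53-intact, while Hoxb13 overlaps.

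Secretory and identity genes of the deep Defb50-led Trp53-deleted cells lay inside the Trp53-intact range. The 2 deep Defb50-led Trp53-deleted cells had Defb1 at 56.2 and 19.0 and Rnase1 at 35.5 and 6.26 UMIs per 10000, against medians of 30.4 and 18.0 in the 82 Trp53-intact cells. Their Hoxb13 was 2.26 and 2.09 against a median of 1.81. No order between the groups is read from 2 cells. Summed over the 8 Defb50-led cells of Trp53-deleted and the 345 of Trp53-intact, Defb1 was 3791 CPM (3440 to 4168) and 3259 CPM (3193 to 3325), and Rnase1 2051 and 2086 CPM.

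Reg3g was the lowest named gene in Trp53-deleted relative to Trp53-intact. It was 36.4 CPM in Trp53-deleted and 4672 CPM in Trp53-intact (log2 -6.66), where 1 cell gave 54.2% of its UMIs, and the 4 deep Trp53-deleted cells had 0.0921, 0.755, 0.569 and 0.206 UMIs per 10000. The Trp53-intact cells had a median of 0.972 and reached 619, and 54 of the 82 had a UMI, so the groups overlapped. Wfdc18 was 47.4 and 2723 CPM in Trp53-deleted and Trp53-intact (log2 -5.57). Mmp7, the protease matrilysin, was 372 and 4562 CPM (log2 -3.58); the 2 Sbp-led Trp53-deleted cells had 0.276 and 0 UMIs per 10000, the 2 Defb50-led ones 12.6 and 5.12, and the Trp53-intact cells a median of 18.7. Reg3b (0 and 475 CPM, 70.5% of the UMIs in Trp53-intact from 1 cell), Prr9 (3.64 and 212 CPM), the luminal factor gene Gata2 (10.9 and 94.6 CPM), the chaperone gene Hyou1 (14.6 and 123 CPM), Ttr (10.9 and 89.8 CPM) and Fgl1 (10.9 and 87.8 CPM) were the other named lower genes, with Upk3a and Pnliprp1, which had 0 UMIs in Trp53-deleted. Upk3a rests on 1 Trp53-intact cell and was 3.52 CPM without it, under the 10.9 CPM that 0 UMIs allow in Trp53-deleted.

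Most named higher genes were those of the Sbp-led cells. Mat2a, which makes the methyl donor S-adenosylmethionine, was 43.4 and 34.3 UMIs per 10000 in the 2 deep Sbp-led Trp53-deleted cells and 0.944 and 1.90 in the 2 Defb50-led ones, against a median of 1.56 and a highest value of 8.68 in Trp53-intact. Crabp1 (3.22 and 1.64 in the Sbp-led, 0 in both Defb50-led cells), Cited1 (3.59 and 7.81 against 0 and 0.379), Ank (4.70 and 12.1 against 0.189 and 0) and H2-Q10 (7.74 and 12.1 against 0.189 and 0.379) had the same pattern. Rsad2 and Cmpk2, interferon-induced antiviral genes, came from 1 cell, as did Sbpl and Ptgdr, and 1 cell gave 99.1% of the Spink5 UMIs and 85.2% of the Fabp5 UMIs. Of 23 measured interferon and class I genes, 7 were higher, Rsad2 among them, and 0 lower, where 3.56% and 6.06% of all genes were. Which cells gave the UMIs of the other higher genes of this list is not given here.

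On summed levels, secretory machinery and stress genes were on the lower side in Trp53-deleted, where 3.56% of all genes were higher and 6.06% lower. Those levels mix Sbp-led and Defb50-led cells in unlike shares in the 2 libraries, and the lists were not split by leading marker. Of 36 measured genes of secretory machinery and the unfolded protein response, 0 were higher and 10 lower, with a median log2 of -0.61. Manf was 0.737, 3.40, 3.79 and 4.93 UMIs per 10000 in the 4 deep Trp53-deleted cells and had a median of 8.33 in Trp53-intact, with overlap. Of 19 genes induced by dissociation, 0 were higher and 17 lower, with a median log2 of -2.06: Fos was 18.2 CPM in Trp53-deleted and 682 CPM in Trp53-intact, and Hspa1a 10.9 and 413 CPM. Their part in the other differences was not tested. Of 57 androgen response genes 4 were higher and 5 lower, with a median of -0.15.

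Barcode sequences of 4 Trp53-intact secretory luminal cells also occurred in another library, 2 in each ADT library, and none of the 382 cells shared a barcode with another of them.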

How the data were processed

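The authors deposited raw UMI counts per gene and barcode for all 4 libraries in 1 matrix of 30905 genes and 36326 barcodes, with mm10 as the build per the submitters' processing notes, which name Cell Ranger 2.1.1, while the matrix header gives 3.1.0. The labels do not say how barcodes had been selected. The library of each barcode came from the submitters' table of suffixes. CPM are the summed counts of a class in a library, scaled to a total of 1000000. UMIs of 3′ ends count molecules whatever the gene's length.

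Comparator cells were never secretory luminal. Immune cells had 2 or more Ptprc UMIs; the other classes had none. Basal-gated cells had Krt5, Krt14, Krt15 and Krt17 together at 20 or more UMIs per 10000; progenitor-gated cells, not basal-gated, had a marker list that includes Krt4, Psca, Ppp1r1b and Krt7 at 20 or more.

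Log2 differences used 10 CPM added to each level, for genes with at least 10 UMIs expected in the smaller sum, and a gene counted as higher or lower at 2-fold. Intervals were Poisson for CPM, conditional binomial for ratios and Clopper-Pearson for shares; a count of 0 was given the limit of 3 counts. The named genes were, apart from those not reported here, the 12 highest and 12 lowest of Trp53-deleted over Trp53-intact that were at least as high as in every comparator class of 50 or more cells of the higher library, and the 15 highest and 10 lowest of secretory luminal over progenitor-gated cells with at least 20 CPM on the higher side; the 5 highest of Defb50-led over other cells had at least 50 CPM. Ribosomal protein, mitochondrial and haemoglobin genes, and those whose symbols begin with Gm or end in Rik, could not be named by these rules. Other genes are named from the 35 gene lists or as markers, the genes of the range and of the cell by cell values having been chosen after values were seen. The cells and lists were chosen with earlier results of these data known. Scrublet made at most 1 automatic doublet call per library and so did not work; an alternative left out the highest scores, 0.008 of barcodes per 1000. The counting steps were tested on simulated data. The alternatives were other pseudocounts, filters, marker limits, depth limits, scalings and cell weightings. Further alleles common to all groups, and certain measured genes, some in the gates and lists, are also left out of the text. Python 3.11.15, numpy 2.4.6, scipy 1.17.1, pandas 2.3.3, scanpy 1.11.5 and matplotlib 3.10.9 were used, with GENCODE M21 positions.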

Additional observations from a re-analysis of the deposited data

Results flagged for a closer look

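Above the limit of 20% mitochondrial UMIs, 5 further barcodes of the Trp53-deleted library and 26 of the Trp53-intact library met the marker rule, and none of either ADT library did. They stand out because they lie outside every comparison made here. Their median mitochondrial share was 40.7% in Trp53-deleted and 29.8% in Trp53-intact, and their median summed marker level was 275 and 259.8 UMIs per 10000.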

How the results depend on the processing

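No paired analysis was possible because each group is 1 library, and no replicate could be left out. Of the counts of genes and shares of cells recomputed under other settings, 48 values kept within the limits (1.5 times a count, the interval of a share) and 26 moved. The Trp53-intact share was 5.73% with a marker limit of 50, 3.62% with 200, 4.01% with at least 1000 UMIs, 1.99% with at least 5000 UMIs (chosen after seeing the data) and 8.42% of cells without Ptprc; the Trp53-deleted share was 0.424% of cells without Ptprc. Genes higher and lower in Trp53-deleted than in Trp53-intact cells numbered 45 and 139 with 50 CPM added, 567 and 665 by the mean of single cells, 812 and 1614 after thinning to 1000 UMIs, 352 and 616 less the CPM of Ptprc-positive cells and 312 and 653 without the filter; without the deepest Trp53-deleted cell, a setting chosen after seeing the data, 132 were lower. For secretory luminal over progenitor-gated cells they numbered 649 and 995 with 2 CPM added, 81 and 200 with 50 CPM, 1236 and 1830 after thinning and 745 and 957 less the CPM of Ptprc-positive cells, and 1360 were lower by the mean of single cells; all settings of this comparison were added after seeing the data. The cause of these moves was not tested. In Trp53-deleted over Trp53-intact, the log2 turned to -0.78 for Cmpk2 and 0.78 for Ttr after thinning and -0.33 for Cdkn2a at a marker limit of 200, and the list median to 0.84 for progenitor markers by the mean of single cells and -0.83 for seminal vesicle markers less the CPM of Ptprc-positive cells. In secretory luminal over progenitor-gated cells, the median turned to -0.018 for other secreted genes, -0.23 for plasma and -0.24 for fibroblast markers by the mean of single cells, -0.16 for basal markers after thinning and -0.058 for seminal vesicle markers at 5000 UMIs. Of the single genes and lists, 867 values stayed within their limits, 328 moved and these 10 reversed. The Trp53-deleted values rest on 12 cells, in which a count of 0 allows up to 10.9 CPM.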
